A study of Mus musculus with 16 samples.

Results

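Gene expression in whole lungs of T1α(-/-) and T1α(+/+) mice was compared at term, on 3 arrays of each genotype out of 16 arrays in the series. The 6 arrays were chosen by their labels alone: replicates F, G and H are homozygous null lungs at birth, and replicates N, O and P are wild type lungs at birth. The other 10 arrays hold lungs of both genotypes at E18.5, 5 of each, and are used here only to set the term differences beside the earlier ones. All pups came from crosses of T1α heterozygous mice, and term pups were taken within 10 min of delivery. Each array (Affymetrix Murine Genome U74Av2) received labeled total RNA from 1 lung, so the 3 replicates of a genotype are separate lungs. No strain, litter or sex of the term pups was given in the sources used here. The whole organ was extracted, so fewer cells of a type and less RNA per cell cannot be told apart in any value below.

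T1α, also called podoplanin and encoded by Pdpn, is a glycoprotein of the apical membrane of type I cells, the flat cells that cover most of the gas exchange surface. Lungs without it do not form expanded alveolar sacs, and null pups die of respiratory failure soon after birth. Immediate early genes are switched on within minutes of a stimulus, such as a growth factor, stretch or hypoxia, without new protein synthesis. Many encode transcription factors, among them the AP-1 subunits of the Fos and Jun families, and others encode proteins that shut the same signals off again.

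Values are Microarray Suite 5.0 signals, a brightness per probe set in arbitrary units, and differences are (-/-) minus (+/+) means of log2(signal + 16). The constant of 16 makes the differences of dim probe sets smaller than those of the signals themselves. A probe set was tested when its median in at least 1 genotype exceeded a signal of 47.7, which left 5885. Of these, none had an adjusted p under 0.05 (limma, Benjamini-Hochberg), in either direction, and the lowest was 0.498. At an unadjusted p under 0.05, 5 probe sets (0.085%) were higher and 35 (0.595%) were lower in (-/-) lungs. The 3 signals of one genotype lay wholly above or wholly below those of the other, without overlap, for 195 probe sets (3.31%), with (-/-) higher for 81 (1.38%) and lower for 114 (1.94%). The median difference over all tested probe sets was 0.01, and 2783 of the 5885 had a difference below 0. For a single probe set the exact permutation test cannot give a p under 0.1 with 3 arrays against 3. With no genotype effect, a share of 0.1 of probe sets would on average lie without overlap, more than the 3.31% seen. The share with an unadjusted p under 0.05 was likewise below the 0.05 of such a case. The genes described below are therefore given by their signals on each array, and none of them passed the adjusted test.

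Some arrays stood apart in ways that crossed the genotypes. The ratio of the 3′ to the 5′ GAPDH probe sets, a sign of how complete the labeled RNA was, measured 1.11, 2.63 and 0.827 on (-/-) replicates F, G and H. On (+/+) replicates N, O and P it was 1.84, 2.55 and 0.853. F, H and P were thus low and G, N and O high. The first principal component (45.1% of the variance) had loadings of 0.43 on H and 0.62 on P. Those on G, N and O were -0.35, -0.37 and -0.40. F had a loading of only 0.07, so this component did not group F with H and P. F also correlated about equally with N (Pearson r = 0.934 of log2 signals) and with H (r = 0.931). By correlation of log2 signals, H was closest to P (Pearson r = 0.953), an array of the other genotype, and the wild type pair O and P was the farthest apart (r = 0.861). P had the most probe sets over 1 log2 unit from the median of the other 5 arrays, 256 above and 47 below. Without P, 586 probe sets (9.83% of 5963) were higher in (-/-) lungs without overlap and 640 (10.7%) were lower, 20.6% in all. Separation is more frequent with fewer arrays even with no genotype effect, so this share is not comparable with that of all term arrays. Its rise is therefore no sign of a larger genotype effect. The main differences are therefore also given without P or within the arrays of like GAPDH ratio. Without P, both (+/+) arrays left have a high ratio, while F and H have a low one. Genotype and ratio are thus partly confounded in every value given without P.

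The summed signal of the heart muscle list was 15291 on F and 8102 on O, and between 1483 and 2296 on the other 4 arrays. The skeletal muscle list was highest on P, at 3841, against 369.7 to 1406 on the others. G was the array with a high signal of Xist, 75.8 against 6.7 to 10.6 on the others, and a low signal of the Y-linked Eif2s3y, 6.5 against 43.9 to 58.9. All of these could move with a gene of interest on a single array, and their part in the results below was not tested.

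**Figure D1:**
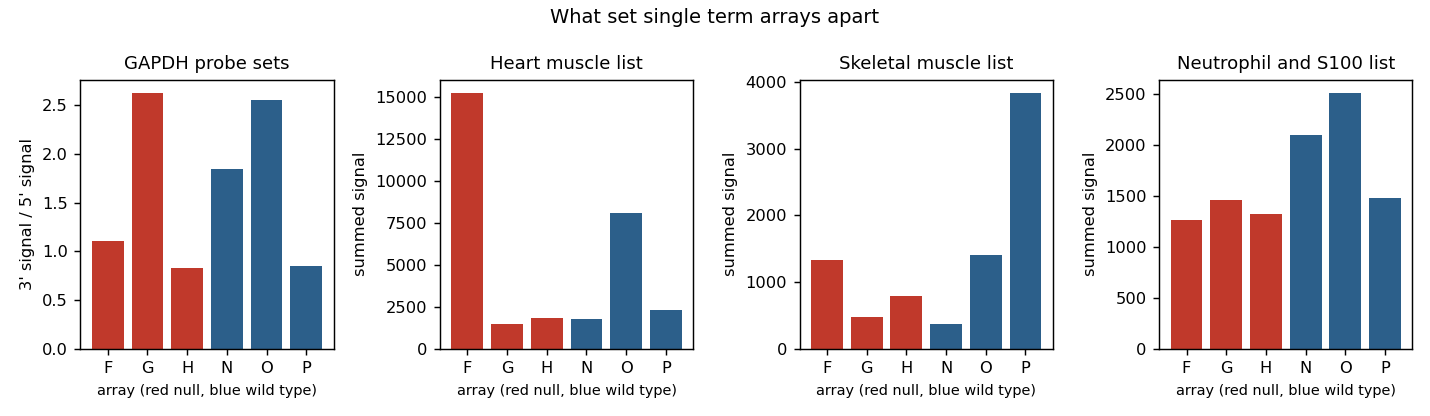
Bars show, for each term array (red, (-/-) replicates F, G and H; blue, (+/+) replicates N, O and P), the ratio of 3′ to 5′ GAPDH signal and the summed signal of 3 gene lists in arbitrary units. The GAPDH ratio divides the arrays across the genotypes, heart muscle genes are high on F and O, skeletal muscle genes on P, and neutrophil and S100 genes are lowest on the 3 (-/-) arrays.

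T1α itself had signals of 9, 8.6 and 30 on (-/-) replicates F, G and H and of 88.5, 39.7 and 214.9 on (+/+) replicates N, O and P. Every (-/-) array lay below every (+/+) array, although the 3 (+/+) lungs spread widely and P was the brightest. Where its probe set lies relative to the disrupted part of the gene is not given in the sources used here. The difference was -1.86 (SE 0.47, unadjusted p = 0.00271 in limma) and -1.32 without P. At E18.5 T1α was 1.4 to 21.2 in (-/-) lungs and 60.2 to 135.5 in (+/+) lungs, and its genotype difference at term was not distinguishable from that at E18.5 (0.25, unadjusted p = 0.651 for the interaction). The whole type I cell list had 8 tested members, with 6 below 0 and a median difference of -0.10. Ager, a receptor abundant in type I cells, was 1785, 1506 and 3412 on the (-/-) arrays and 1280, 872.5 and 3582 on the (+/+) arrays, so that H and P were the high arrays whatever their genotype.

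Of 62 immediate early genes in 4 lists, 49 were on the array and 38 were tested. In 7 of the 38 the (-/-) signals lay wholly below the (+/+) signals, against 1.94% of all tested probe sets, and in none did they lie wholly above. The 7 were Fos, Fosb, Egr1, Nr4a1, Ccn1, Dusp1 and Rgs2, and each also had an unadjusted p under 0.05, against 0.595% of all tested probe sets in that direction. Egr1, Nr4a1, Fosb, Dusp1 and Ccn1 are among the genes the study reports from these same arrays, so their count is not independent evidence. The median difference of the 38 genes was -0.37, with 32 below 0, against 2783 of all 5885 tested probe sets. This median was -0.51 without P and -0.26 with the class of GAPDH ratio as a block. Without P, 14 of the 38 had an unadjusted p under 0.05 with a lower signal, against 2.31% of all tested probe sets, and none with a higher signal, against 2.52%. That fit partly confounds genotype with the GAPDH ratio, high on both (+/+) arrays left and low on F and H, so its larger values are no added support. With the GAPDH class as a block, 97 (1.65%) of all tested probe sets were lower and 44 (0.748%) higher at an unadjusted p under 0.05. Among the 38 early genes, those lower in that fit were the 7 above, Junb, Zfp36 and Ppp1r15a. The 11 early genes on the array that were not tested had signals near or below the filter level, among them the AP-1 subunit gene Fosl1, at 13.5, 17.8 and 6.3 in (-/-) lungs and 2.8, 2.7 and 5.5 in (+/+) lungs.

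Fos, the AP-1 subunit that gives the family its name, had signals of 328.2, 1637 and 712.1 on F, G and H, and of 2283, 2487 and 2239 on N, O and P. The (+/+) lungs agreed closely with each other, whereas the (-/-) lungs differed several-fold and G came nearest to wild type. The difference was -1.66 (SE 0.47, unadjusted p = 0.00543 in limma), with -1.10 without F and -2.23 without G.

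Egr1, a zinc finger transcription factor, showed the same order among the (-/-) lungs. Its signals were 30.9, 116.7 and 43.5 on the (-/-) arrays and 242.5, 262.5 and 174.5 on the (+/+) arrays, again with G the highest of the null lungs. The difference was -1.74 (SE 0.36, unadjusted p = 0.000767), and it was -1.90 without P.

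Ccn1, also called Cyr61, encodes a secreted protein that binds integrins in the matrix. It had signals of 145, 232.2 and 234.7 in (-/-) lungs against 548.9, 613.9 and 520.8 in (+/+) lungs, and here both groups were tight. The difference of -1.42 (SE 0.26) had the lowest adjusted p of any early gene, 0.856 in limma. Among the arrays of low GAPDH ratio it was -1.42 and among those of high ratio -1.27. The study reports that other methods did not bear out the lower Cyr61 mRNA of the arrays. It also reports a significantly higher level of Cyr61 protein in lungs without T1α. For Fosb, Egr1, Dusp1 and Nr4a1 at term, by contrast, the study reports lower mRNA both on the arrays and by real time RT-PCR.

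Nr4a1, the orphan nuclear receptor Nur77, was 133.6, 355.1 and 605 on the (-/-) arrays and 785.9, 1082 and 717.1 on the (+/+) arrays. H was the highest of the (-/-) lungs for this gene, in contrast to Fos and Egr1, and lay close to P. The difference was -1.41 (SE 0.46), -1.53 without P, -0.85 without F and -1.87 without H.

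The remaining 3 genes had smaller differences. Dusp1, the phosphatase MKP-1 that inactivates MAP kinases, measured 1294, 1494 and 1048 against 1700 to 2428 in (+/+) lungs (difference -0.69, SE 0.25). Fosb, another AP-1 subunit, measured 92.3, 139.5 and 101.6 against 157.8 to 202.9 (-0.64, SE 0.23). Rgs2, which shortens G protein signaling, measured 291.7, 302.3 and 403.5 against 447.8 to 798, with N well above the other arrays (-0.71, SE 0.29).

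**Figure D2:**
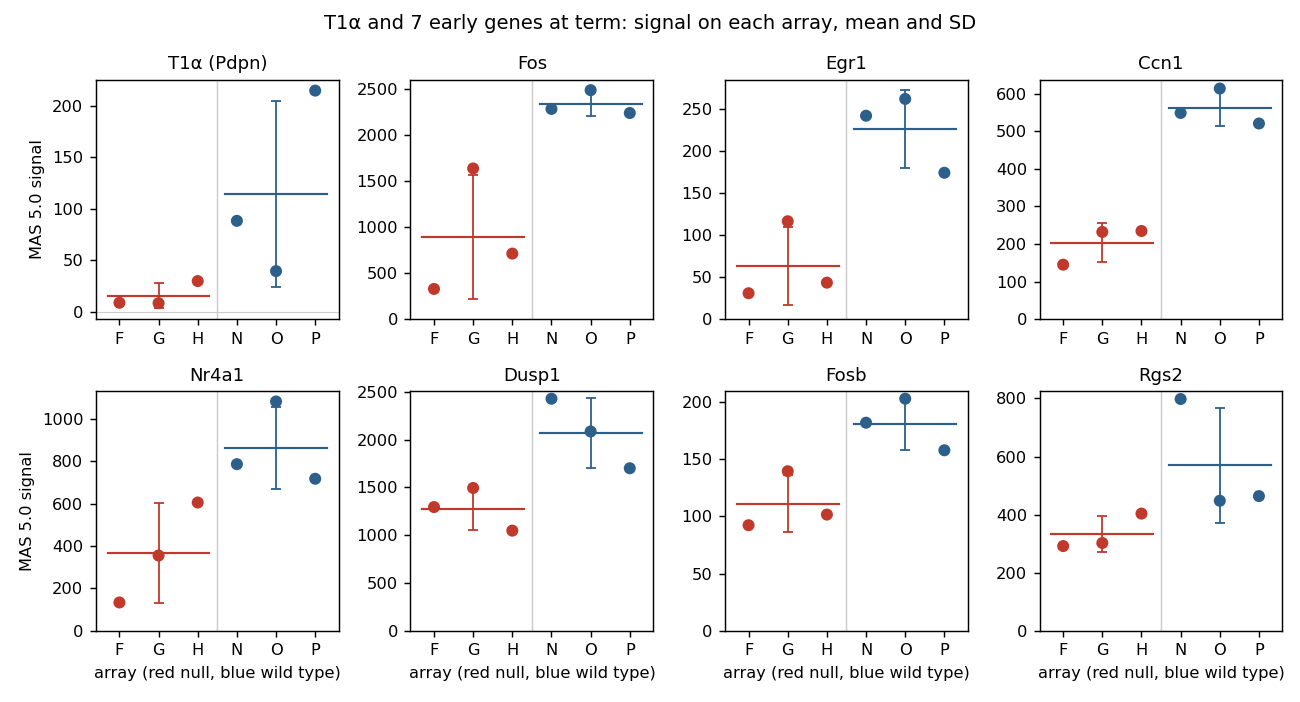
Points are Microarray Suite 5.0 signals (arbitrary units, vertical axis) of T1α and 7 early genes on each term array, red for (-/-) and blue for (+/+), with lines at the mean of 3 arrays and bars of 1 SD. In each panel the 3 (-/-) points lie below the 3 (+/+) points, and F is the lowest (-/-) array for Fos, Egr1, Ccn1, Nr4a1, Fosb and Rgs2.

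Since these genes shared a direction, the bases before their start sites are shown for 4 of them. The sequences are the 250 bases upstream of the RefSeq start on mouse assembly GRCm38.p6, on the coding strand. Capitals mark TGACG, the core of the cAMP response element (CRE), on either strand, the full CRE TGACGTCA, and TATAAA on the coding strand.
Fos (chr12:85473640-85473889, plus strand): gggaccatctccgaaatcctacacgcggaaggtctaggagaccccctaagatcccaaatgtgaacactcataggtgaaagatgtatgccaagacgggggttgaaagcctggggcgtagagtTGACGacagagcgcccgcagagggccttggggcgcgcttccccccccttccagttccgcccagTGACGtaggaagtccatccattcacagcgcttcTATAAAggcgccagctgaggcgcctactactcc
Ccn1 (chr3:145649986-145650235, minus strand): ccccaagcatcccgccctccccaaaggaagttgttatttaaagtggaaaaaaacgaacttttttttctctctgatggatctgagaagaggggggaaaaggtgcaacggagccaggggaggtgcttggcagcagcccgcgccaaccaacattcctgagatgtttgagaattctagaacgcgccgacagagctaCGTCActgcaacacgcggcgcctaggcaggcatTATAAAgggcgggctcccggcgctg
Nr4a1 (chr15:101266596-101266845, plus strand): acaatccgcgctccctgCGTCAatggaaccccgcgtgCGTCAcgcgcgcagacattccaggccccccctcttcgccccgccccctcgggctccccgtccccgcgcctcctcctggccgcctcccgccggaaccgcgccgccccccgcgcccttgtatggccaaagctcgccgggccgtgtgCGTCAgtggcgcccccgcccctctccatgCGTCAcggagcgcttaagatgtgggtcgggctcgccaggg
Dusp1 (chr17:26508473-26508722, minus strand): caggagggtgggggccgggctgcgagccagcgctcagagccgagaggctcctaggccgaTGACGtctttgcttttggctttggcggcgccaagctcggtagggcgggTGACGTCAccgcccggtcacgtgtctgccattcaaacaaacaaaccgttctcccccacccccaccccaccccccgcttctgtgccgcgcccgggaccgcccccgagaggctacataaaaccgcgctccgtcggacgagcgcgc

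TGACG on either strand was present in these windows of all 6 of the 7 genes that have an entry in the promoter table, namely Fos, Fosb, Nr4a1, Ccn1, Dusp1 and Rgs2. It was present in 17.8% of all 32851 windows of the same length and in 25 of 44 early genes with an entry (56.8%). Among the tested early genes whose genotypes overlapped it was present in 9 of 26. Genes were counted once if any of their windows held the letters, so these counts and the shares of windows are unlike measures. A gene with several windows is more likely to be counted. The full CRE, which contains TGACG on both strands, was found in Dusp1 among the 6 genes and in 1.55% of all windows. TATAAA on the coding strand was found in Fos and Ccn1 and in 7.59% of all windows. The CArG box, on which serum response factor binds, lay in none of the 6 windows and in 1.47% of all. An AP-1 site (TGANTCA, either strand) likewise lay in none of the 6 and in 6.75% of all. Of the 44 early genes with an entry, 5 held a CArG box and 4 an AP-1 site. These matches describe letters in a window and were not tested against the arrays. Bases farther upstream were not scanned, and Egr1 has no entry. Whether the 7 genes hold a CArG box or an AP-1 site outside these windows was therefore not tested.

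By role, the AP-1 factors had 8 tested members with a median difference of -0.56, and -0.72 without P. Junb was 268.5, 825.9 and 380.7 in (-/-) lungs and 1346, 1139 and 491 in (+/+) lungs, where P overlapped with G (difference -1.02, SE 0.46). Jun was 358.6, 626.9 and 220.3 against 724.8, 512 and 456.2, with G inside the wild type range (-0.57, SE 0.37). Atf3, a stress-induced member of the same protein class, was 267.8, 515.6 and 722.9 against 1406, 584.8 and 398.5. The difference of -0.56 was -0.05 without N. Jund and Maff had differences of 0.02 and 0.05, and Fosl2 of -0.21.

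The Egr, Nr4a and Klf factors had 8 tested members and a median of -0.53, or -0.83 without P. Klf4, a zinc finger factor of epithelia, was 181.9, 290.1 and 281.9 on the (-/-) arrays and 821.7, 491.1 and 206.3 on the (+/+) arrays. P was below G and H, and the difference went from -0.80 to -1.31 without it. Ier2, a short nuclear protein, was 863.8, 1869 and 947.1 against 2270, 2160 and 1274 (-0.67, SE 0.35). Klf2 and Egr2 overlapped in the same way, with P low among the (+/+) lungs (-0.35 and -0.39), whereas Klf6 and Klf10 had differences of -0.12 and 0.08.

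Feedback inhibitors had a median of -0.24 over 15 tested members, and whether the lists differ was not tested. Ppp1r15a, a phosphatase subunit that restores translation after stress, was 148.1, 149.2 and 288.4 against 400.8, 218.4 and 315.9 (-0.66, SE 0.32). H was the only (-/-) array inside the wild type range. Socs3, which blocks cytokine receptors, has 2 tested probe sets. One was 128.4, 193 and 126.2 against 307, 279.2 and 130.3, and the other was 80, 106 and 71 against 274.2, 109.2 and 118.8 without overlap. Gadd45g, Zfp36l2 and Ier3 had differences of 0.02, 0.01 and 0.15. For Zfp36 and Btg2, P was the highest array, and leaving it out took their differences from -0.45 to -0.03 and from -0.40 to -0.10.

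The early secreted and cytoskeletal genes had 7 tested members, all with a difference below 0, and a median of -0.23. Ccn2, the connective tissue growth factor, was 440.5, 270.2 and 125.6 in (-/-) lungs and 530.8, 519 and 289.8 in (+/+) lungs, with F inside the wild type range (-0.76, SE 0.42). Rhob, Vcl, Plaur and Hbegf lay between -0.23 and -0.14.

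**Figure D3:**
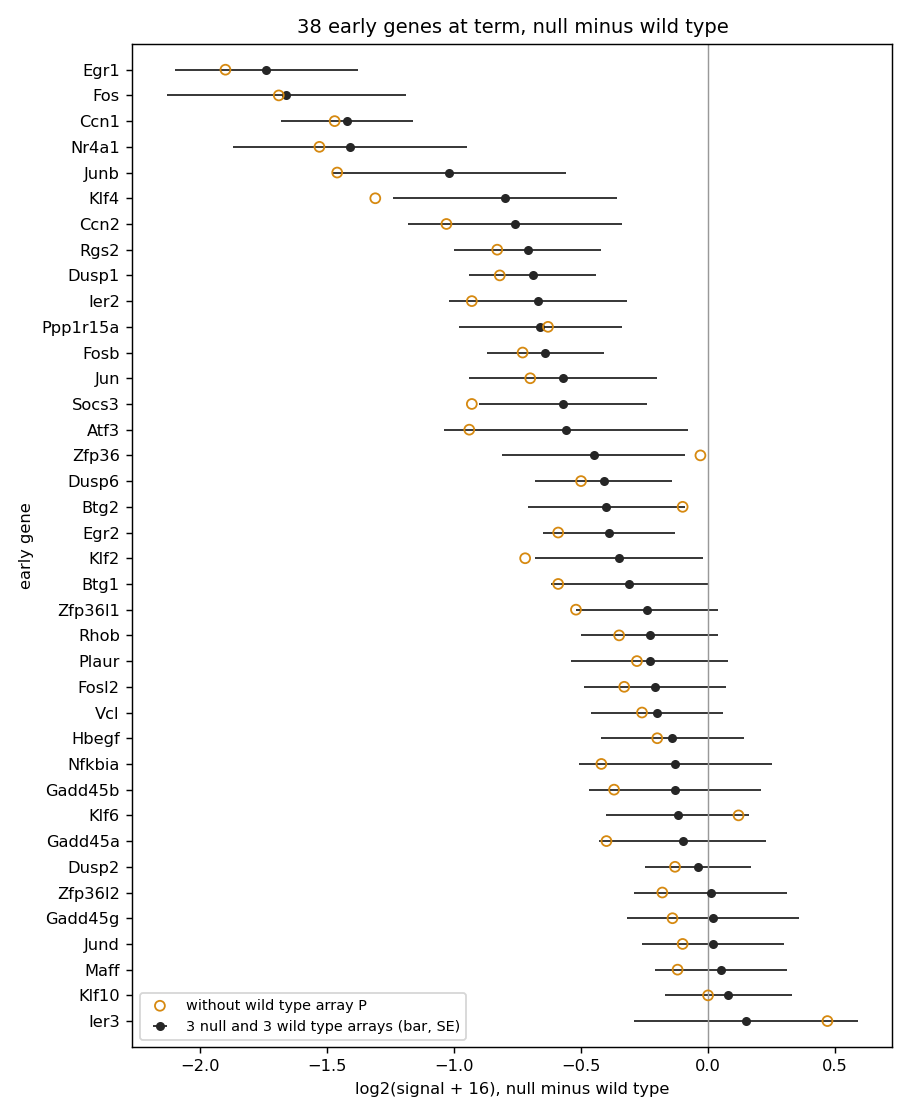
Filled points give the (-/-) minus (+/+) difference of log2(signal + 16) for each of 38 tested early genes with bars of 1 SE (3 arrays against 3), and open circles give it without wild type replicate P. The differences run from -1.74 for Egr1 to 0.15 for Ier3, 32 lie below 0, and most open circles lie further left.

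Array by array, the early genes were uneven. Over the 38 genes the mean log2 distance from the (+/+) average was -0.66 on F, -0.22 on G and -0.51 on H. Among the (+/+) arrays it was 0.21 on N, 0.05 on O and -0.27 on P, so P was slightly below the null lung G in this summary. F was the lowest of the 6 arrays for 15 genes and H for 9, while P was the lowest for 8. N was the highest for 20 and O for 10. Neither F nor H was the highest array for any of the 38. Within the arrays of low GAPDH ratio (F and H against P) Fos differed by -2.17 and Egr1 by -1.85, and within those of high ratio (G against N and O) by -0.54 and -1.02. F, the array lowest for 15 of these genes, was also the one with the highest heart muscle sum. O had the next highest heart muscle sum, 8102, and an early gene mean of 0.05. G, the null lung nearest to wild type in this summary, was the one with high Xist. Each of these is a single array, and whether either feature bears on the early genes was not tested.

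The 7 genes were also set beside E18.5. Fos was 27.5 to 85.3 on all 10 arrays of E18.5, with medians of 58.1 in (-/-) and 63.6 in (+/+) lungs, so that even the lowest null lung at term exceeded them. Ccn1 was 16.8 to 47.6 and Dusp1 96.5 to 233.2 at E18.5, again below every term array of either genotype. The other genes did not all separate the times in this way. The E18.5 signals of Egr1, 16.5 to 96.3, enclosed those of null lungs F and H at term. Those of Fosb, 38.4 to 165.4, enclosed all 3 null lungs and wild type replicate P. The genotype difference at term minus that at E18.5 was -1.91 for Egr1 (unadjusted p = 0.000839), -1.62 for Fos (0.00584), -1.04 for Ccn1 (0.00291) and -0.92 for Dusp1 (0.033), by the interaction term of limma over all 16 arrays. For Nr4a1, Fosb and Rgs2 it was -0.68, -0.61 and -0.23, with unadjusted p of 0.226, 0.18 and 0.56. No probe set of the 6458 in that fit had an adjusted p under 0.05. At an unadjusted p under 0.05 the value was lower at term for 52 (0.805%) and higher for 43 (0.666%).

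**Figure D4:**
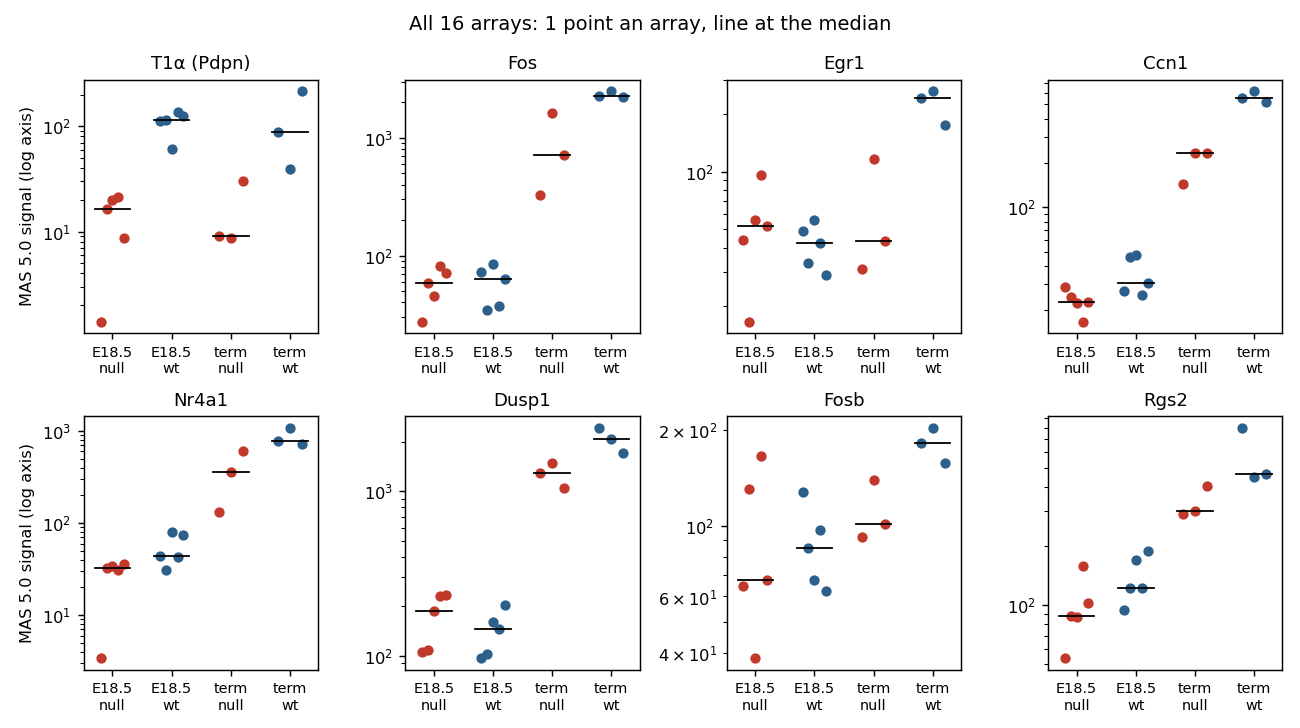
Each point is 1 array (signal in arbitrary units on a log axis; red (-/-), blue (+/+)) in the 4 groups of 5, 5, 3 and 3 arrays, with a line at the median. Fos, Ccn1, Nr4a1, Dusp1 and Rgs2 were higher at term than at E18.5 in both genotypes, while at term the Egr1 signals of null lungs F and H, and the Fosb signals of all 3 null lungs and of P, lay within the E18.5 range.

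Outside the early genes, the lowest p was that of Snrp1c-ps2, named as a pseudogene related to a protein of the U1 splicing particle. It had signals of 43.1, 62.2 and 45.3 in (-/-) lungs and 143.4, 153.3 and 149.2 in (+/+) lungs, with a difference of -1.33 (SE 0.21, adjusted p = 0.498 in limma). Its probe set is of a kind whose probes also match related transcripts, so the source of the signal is uncertain. At E18.5 it ranged from 68.8 to 633 over both genotypes, a spread far wider than at term.

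S100a9, a calcium-binding protein of neutrophils and inflamed epithelium, was 100.3, 153.8 and 144.1 against 271, 288.3 and 193.7, without overlap (difference -0.84, SE 0.26, unadjusted p = 0.00798). Its partner S100a8 was 241.6, 309.9 and 214.9 against 575.7, 493.5 and 254.6, where P overlapped with G (-0.69). Ltf, the lactoferrin gene, overlapped between the genotypes, with a difference of -0.90. All 7 tested members of the neutrophil and S100 list had a difference below 0, against 2783 of all 5885 tested probe sets. Their median was -0.44. Without P it was -0.78, with 6 of the 7 below 0 and Lcn2 at 0.01. That fit partly confounds genotype with the GAPDH ratio, so its larger median is no added support. The summed signal of the list was 1265 to 1460 on the (-/-) arrays and 1480 to 2512 on the (+/+) arrays. The granule genes Mpo, Elane, Prtn3 and Ctsg, which define immature neutrophils, did not pass the filter on low signals.

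Sgk1, a kinase induced by glucocorticoids that raises sodium uptake, differed through 2 of the wild type lungs. It was 339.5, 375.3 and 463.8 in (-/-) lungs, 1470 and 1071 on N and O, and 339.8 on P. The difference was -1.04 with all arrays and -1.65 without P (unadjusted p = 0.000161). The glucocorticoid response list as a whole, which also holds Dusp1, S100a8 and S100a9, had a median of -0.12 over 18 tested members.

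H1f2, a linker histone, was 1281, 926.4 and 1001 against 2592, 1677 and 1320 (difference -0.75, SE 0.29). H2-Ab1, a chain of the MHC class II molecule, was 43.3, 58 and 51.8 against 96.7, 84.1 and 60.7 (-0.51). Of the interferon and antigen presentation list, 11 of 12 tested genes lay below 0, against 2783 of all 5885 probe sets. The median of that list was -0.14. Anxa1, an anti-inflammatory annexin, was 201.6, 257.3 and 202 against 333, 977.5 and 282.6. O was far above the other arrays, and without it the Anxa1 difference was -0.46. Another Anxa1 probe set, the one used in the neutrophil and S100 list, overlapped between the genotypes. It was 445.9, 545.3 and 378 against 590.7, 1042 and 381.5 (-0.44). The squamous keratin gene Krt4 was also high on O, at 756 against 80.6 to 129.1 on the others. A probe set annotated to several genes, and so left unnamed, was 31.6, 40.9 and 59.2 against 106.2, 79.6 and 270.9 (-1.35, SE 0.38). At E18.5 this probe set was 33.9 to 66 in (-/-) lungs and 125.5 to 224.1 in (+/+) lungs. Its genotype difference at term was not distinguishable from that at E18.5 (0.18, unadjusted p = 0.685 for the interaction in limma).

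Further genes had lower signals in (-/-) lungs without overlap. Ica1, an islet cell autoantigen gene, was 149.3, 54.8 and 103.9 against 211.3, 265.4 and 196.4 (difference -1.09). Reln, which encodes the secreted protein reelin, was 20.2, 12.1 and 22.5 against 49.5, 49 and 27.1 (-0.74). These signals are dim, and only the (+/+) median passed the filter level of 47.7. Another Reln probe set, too dim to be tested, leaned the other way with overlap, at 25.1, 23.2 and 14 against 21.1, 7.1 and 5.9. Nfix, a transcription factor of the nuclear factor I family, was 184.1, 177 and 146.9 against 235.5, 266.8 and 208.4 on one probe set (-0.45), while its other probe set gave -0.02.

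Among tested genes with higher signals in (-/-) lungs and no overlap, Asxl1 had the largest difference. Asxl1, a Polycomb-associated chromatin protein, was 174.7, 217.3 and 153.4 in (-/-) lungs and 122.6, 97.4 and 87.7 in (+/+) lungs. The difference was 0.74 (SE 0.23, unadjusted p = 0.00944), and at E18.5 the direction of the ranges was the other way, 101.3 to 134.1 in (-/-) and 121.8 to 234.6 in (+/+) lungs. The term difference exceeded that at E18.5 by 1.17 (unadjusted p = 0.00106). A second Asxl1 probe set, too dim to be tested, was 40.9, 31 and 26.5 against 34.9, 29.3 and 42.7. It thus overlapped between the genotypes, unlike the first.

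Inha, the inhibin α subunit, was 47.8, 147.2 and 60.8 against 43.1, 36.7 and 41.3 (difference 0.72), with G alone far above the rest. Cars, the cysteinyl-tRNA synthetase, was 59.7, 63.6 and 80.9 against 23.7, 48.7 and 45.3 (0.63). Gtf2f1, the large subunit of the transcription factor TFIIF, was 59.3, 68.8 and 70.8 against 35.7, 43.8 and 49.1 (0.49). The small subunit, Gtf2f2, had the opposite sign, at 20.9, 36.3 and 34.9 against 50.7, 111.1 and 59.3 (-0.90).

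Rfxank, part of the factor that drives MHC class II genes, was 90.7, 87.1 and 76.2 against 51.1, 65.6 and 54.1 (difference 0.47). Hbb-y, an embryonic globin, was 105.4, 123.8 and 64.3 against 63, 56 and 62.9 (0.53), so that H was barely above N. Its probe set, like that of Snrp1c-ps2, is of a kind whose probes also match related transcripts. The embryonic globins Hbb-bh1 and Hba-x, too dim to be tested, overlapped between the genotypes. Hbb-bh1 leaned the other way, at 17.7, 26.4 and 33.2 against 29.3, 42.9 and 32. The erythroid list had a median of 0.32 over 8 tested members, and 0.14 with the class of GAPDH ratio as a block. Pick1, which binds protein kinase Cα, was 64.1, 86.9 and 85.1 against 41.2, 52.5 and 59.6 (0.50). Another Pick1 probe set, too dim to be tested, overlapped between the genotypes, at 29.4, 4.7 and 63 against 13.4, 21.4 and 35.1. Srsf1, a splicing factor, had a difference of 0.44 on one probe set and -0.32 on another.

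**Figure D5:**
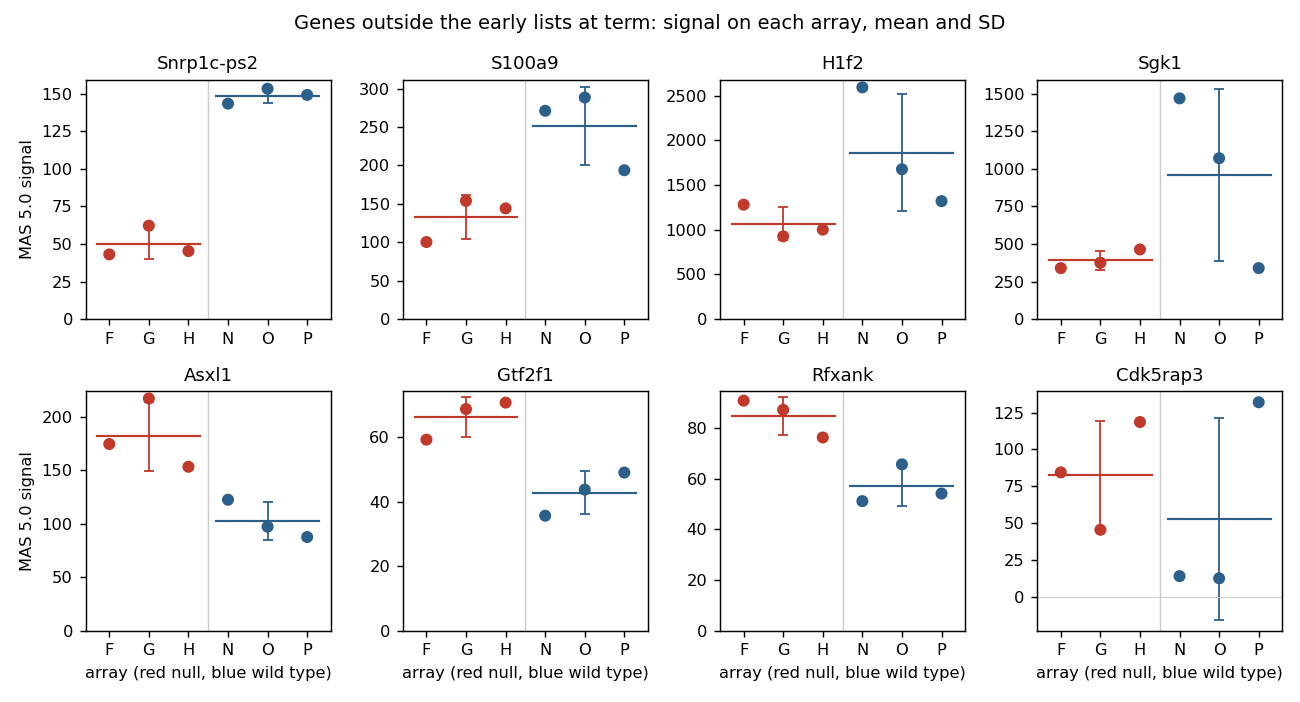
Points are signals (arbitrary units, vertical axis) of 8 genes outside the early lists on each term array, red for (-/-) and blue for (+/+), with lines at the mean of 3 arrays and bars of 1 SD. Snrp1c-ps2, S100a9 and H1f2 are lower and Asxl1, Gtf2f1 and Rfxank higher on every (-/-) array, while P lies among the null lungs for Sgk1 and above them for Cdk5rap3.

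The lists of lung cell types had medians near that of all probe sets. Type II cell and surfactant genes had a median difference of 0.13 over 14 tested members, none with an unadjusted p under 0.05. Sftpb, a surfactant protein that spreads the lipid film, was 2507, 1999 and 2185 in (-/-) lungs and 1431, 1379 and 2060 in (+/+) lungs, with G inside the wild type range (0.47, SE 0.24). Endothelial genes had a median of -0.02, smooth muscle genes -0.12, elastic fiber and matrix genes -0.05, and airway cell genes 0.08. Of the genes of replication and mitosis, 17 of 32 on the array passed the filter on low signals, with a median of -0.07. Besides the early lists, the neutrophil and S100 list (-0.44) and the erythroid list (0.32), lists with 3 or more tested genes had medians from -0.36 for skeletal muscle, which was highest on P, to 0.19 for cartilage with 3 tested genes.

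Leaving out P brought forward a set of genes that were high on F, H and P. Cdk5rap3 was 84.5, 45.6 and 118.6 in (-/-) lungs, 14.2 and 12.7 on N and O, and 132 on P. Its difference was 1.68 without P and 0.90 with it. Prmt1, an arginine methyltransferase, was 179.3, 75.4 and 343.2 against 52.5, 66 and 373.1, and its difference went from 0.52 to 1.31. With the class of GAPDH ratio as a block these differences were 0.36 and -0.13. In the same fit Egr1 was at -1.43, Ccn1 at -1.34, Fos at -1.35 and Asxl1 at 0.84, the lowest adjusted p of these being 0.168 for Egr1.

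Single lungs had features of their own. On F, the genes farthest above the other arrays were those of heart muscle, such as Myl7, an atrial myosin light chain (2904 against 147.8 to 1217), and Nppa, the atrial natriuretic peptide (1069 against 45.2 to 459.8). Those farthest below were Fos, Nr4a1 and Egr1. On G, the heat shock gene Hspa1b was 503.6 against 38.1 to 237.7, and its nearly identical neighbor Hspa1a was 609.4 against 119.2 to 410.7. On N, Sgk1, Junb and Klf4 were among the genes farthest above. On O, Gsto1, a glutathione transferase, was 909.4 against 45.3 to 187.3. On P, Acta1, the actin of skeletal muscle, was 2317 against 29.7 to 677.2.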

How the data were processed

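The authors labeled total lung RNA with the ENZO kit and hybridized it to U74Av2 arrays. They derived a signal intensity per probe set with Microarray Suite 5.0 and scaled each array, and the deposited intensities are linear. The mean of each term array without its lowest and highest 2% was 99.98. The members and gene lists were chosen with earlier results of these data known. Samples were grouped by their labels. Of 12488 probe sets, 66 are controls, 10833 have 1 symbol, 396 several and 1193 none, from the platform annotation with symbols updated through RefSeq of GRCm38.p6. Signals were used as log2(signal + 16) and compared in limma 3.58.1 (lmFit, then eBayes with an intensity trend; R 4.3.3). This left 4 residual degrees of freedom, and the 2-sided p-values were adjusted by Benjamini-Hochberg. The filter of 47.7 replaces the detection p-values of the methods, which were not used here, and is the signal exceeded by the mean share of probe sets called present. Per gene, 1 probe set entered a list, that of the highest mean. Named genes were T1α, genes the study names, tested early genes, the 12 largest differences without overlap in each direction, up to 4 members a list with the lowest p, and the 8 genes farthest above and below on each array. The unnamed probe set was added after its values were seen. Fits were tested on simulated data. Alternatives changed the scaling, pseudocount, filter, covariates, test and arrays. The number of arrays limits the precision. No batch was given. Python 3.11.15, pandas 2.3.3, numpy 2.4.6 and matplotlib 3.10.9 were used.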

Additional observations from a re-analysis of the deposited data

Results flagged for a closer look

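A pair of control probe sets outside the comparisons stood out on a single array. AFFX-BioC-3_st, a probe set for the strand opposite to a bacterial control transcript, had a signal of 100.7 on (-/-) replicate G at term, above the highest wild type array at term (2.5) and the highest of the other 15 arrays (65.9). AFFX-BioC-5_st had a signal of 226.5 on the same array, against 13.1 and 73.8. Control probe sets entered no test.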

How the results depend on the processing

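No alternative gave a probe set with an adjusted p under 0.05. The number with an unadjusted p under 0.05 and a higher signal in (-/-) lungs, 5 in the fit described, was 9 with each array centered on its median, 96 with no filter and 2 with a stricter filter, passed by 25% of values. It was 38 with array weights, 29 with the GAPDH ratio as a covariate, 18 with Xist as a covariate, 35 with the methods' t-test on signals or on log2 signals, 0 with the exact Mann-Whitney test, which cannot reach it with 3 arrays against 3, and 44 with the class of GAPDH ratio as a block, which was added after the ratios were seen. Leaving out each array in turn gave 4 to 150, the highest without P, with 13 without F, 23 without G, 17 without H and 22 without O. The number lower, 35, was 126 with no filter, 20 with the stricter filter, 79 with array weights, 80 with the GAPDH ratio, 0 with the Mann-Whitney test, 97 with the block of GAPDH class, and 34 to 138 with each array left out, the highest without P. The probe sets without overlap, 195, were 563 with no filter, 89 with the stricter filter, and 516 to 1226 with 1 array left out, where fewer arrays overlap less. The cause of the other shifts was not tested. Of the medians of gene lists under these alternatives, 658 moved by less than the spread between arrays and 23 by more. The full set of alternatives was run on 36 named genes, namely the 12 largest differences without overlap in each direction, 11 further early genes and S100a8. None of their 743 values changed direction, and the lowest adjusted p was 0.0633, for Ccn1 with all 16 arrays in 1 limma fit. Genes chosen for having no overlap cannot change direction when an array is left out or the pseudocount, filter or test changes. Their unchanged direction is therefore no support for them. Over all 96 tested probe sets that were listed by the rule for named genes or beside them, the sign changed for 32 with 1 array left out and for 11 with the block of GAPDH class, such as Klf6 (0.12 without P), Nfkbia (0.21 with the block), Hspa1a (0.24) and Prmt1 (-0.13). No paired analysis was possible because the replicates carry letters and no number is shared between the genotypes. The dim signals limit what could be measured: 11 of the 49 early genes on the array, Myc, Nr4a2, Ptgs2 and Il6 among them, did not pass the filter.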
